A study of Mus musculus with 16 samples.

Results

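A set of 10 genes whose transcripts were lower at 6 or 24 h in cells given the calcium channel agonist BayK8644 was followed across a mouse beta-cell time course. The genes are Sned1, Npr2, Pappa, Mapk15, Triobp, Ptger3, Robo2, Cntfr, Slc40a1 and Cldn1. The 10 genes were taken by symbol from the platform annotation, which gives them 18 of the 45101 probe sets on the array. Of these 18 probe sets 12 reached a log2 intensity of 4 on at least 2 arrays, the filter used throughout, and each of the 10 genes kept at least 1. The other 6 lay between 1.98 and 3.51 on every array and gave no usable level. In all, 10610 named genes passed that filter and were tested. The genes were selected on their log2 differences with BayK8644, so those differences are described and support no test of the 10 genes.

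The cells were R7T1, a line of mouse pancreatic beta cells, and received the compound labelled BayK8644(2a), that compound together with exendin-4, exendin-4 alone, or the DMSO vehicle alone. The meaning of 2a is not given in the labels, and BayK8644 is the reading used here. Cells were collected after 0.5, 2, 6 and 24 h, with 1 array for each treatment and time and 16 arrays in all. Doses are not given in the sources used here. Nothing in the labels says that the arrays came from separate cultures, so errors and p-values do not measure spread between cultures. The error comes from how far the BayK8644 difference at a time disagreed with and without exendin-4. Such disagreement mixes array-to-array spread, which could be purely technical, with any interaction of the agents.

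BayK8644 is a dihydropyridine that prolongs the opening of L-type calcium channels, the channels through which depolarised beta cells take up calcium. Exendin-4 is a peptide agonist of the GLP-1 receptor, which raises cyclic AMP in beta cells. The 10 genes do not form 1 pathway. Npr2, Ptger3, Robo2 and Cntfr encode cell-surface receptors, Pappa and Sned1 encode secreted proteins, Slc40a1 and Cldn1 encode an iron exporter and a tight-junction protein, and Mapk15 and Triobp encode a kinase and an actin-binding protein.

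Each array gives a GCRMA intensity for a probe set, and levels below are log2 of it. A difference of -1 on this scale is a halving. Levels of different genes are not compared, since each probe set has its own response. The arrays were alike in their overall signal, with median intensities of 10.5 to 11.6 and 46.7 to 47.7% of probe sets at or above a log2 of 4. GCRMA normalizes arrays to a common distribution, so this likeness is brought about by the processing and says nothing on array quality. All 10 beta-cell markers examined passed the filter, and the insulin gene Ins2 lay between 15.60 and 15.79 on the 16 arrays. None of the 8 mesenchymal, endothelial and leukocyte markers passed, with mean log2 levels at 24 h of 2.53 to 2.59 with BayK8644 and 2.55 to 2.59 without it. Of 6 acinar and duct markers on the array 2 passed, and the mean over the 6 was 4.63 and 4.70 with BayK8644 at 24 h, against 4.50 and 4.61 without it. With BayK8644 at 24 h the delta-cell hormone gene Sst rose by 2.36 (limma adjusted p = 0.000218) and the glucagon gene Gcg by 0.56 (adjusted p = 0.0176), while the alpha-cell gene Irx2 differed by -0.64 and did not pass (adjusted p = 0.0911). Of the 10 beta-cell markers 1 fell, the transcription factor gene Nkx2-2, by 0.64 (adjusted p = 0.000499), and 0 rose. Averaged over the 5 measured markers of alpha, delta and PP cells, mean log2 levels at 24 h were 4.97 and 5.03 on the arrays with BayK8644, against 4.54 and 4.56 without it. In that mean Ppy and Hhex, the others, lay below 2 on every array. Whether this bears on the 10 genes was not tested, and in whole-culture RNA fewer cells of a kind and less RNA per cell cannot be told apart.

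At 24 h the genes stood lower with BayK8644 in most but not all comparisons of single arrays. BayK8644 was below DMSO for 8 of the 10 genes, and the combination was below exendin-4 for all 10. For 8 genes both arrays with BayK8644 lay below both without it, an order that 22.5% of all genes tested also show at 24 h. At 0.5, 2 and 6 h that order held for 3, 7 and 9 of the 10, against 13.8, 24.2 and 18.9% of all genes. Those counts follow from the way the genes were picked and nothing is read from them. The mean difference of the arrays with and without BayK8644 ran from -1.25 for Sned1 to -0.41 for Cntfr, with a median of -0.89 over the 10 genes and 0.01 over all genes.

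**Figure D1:**
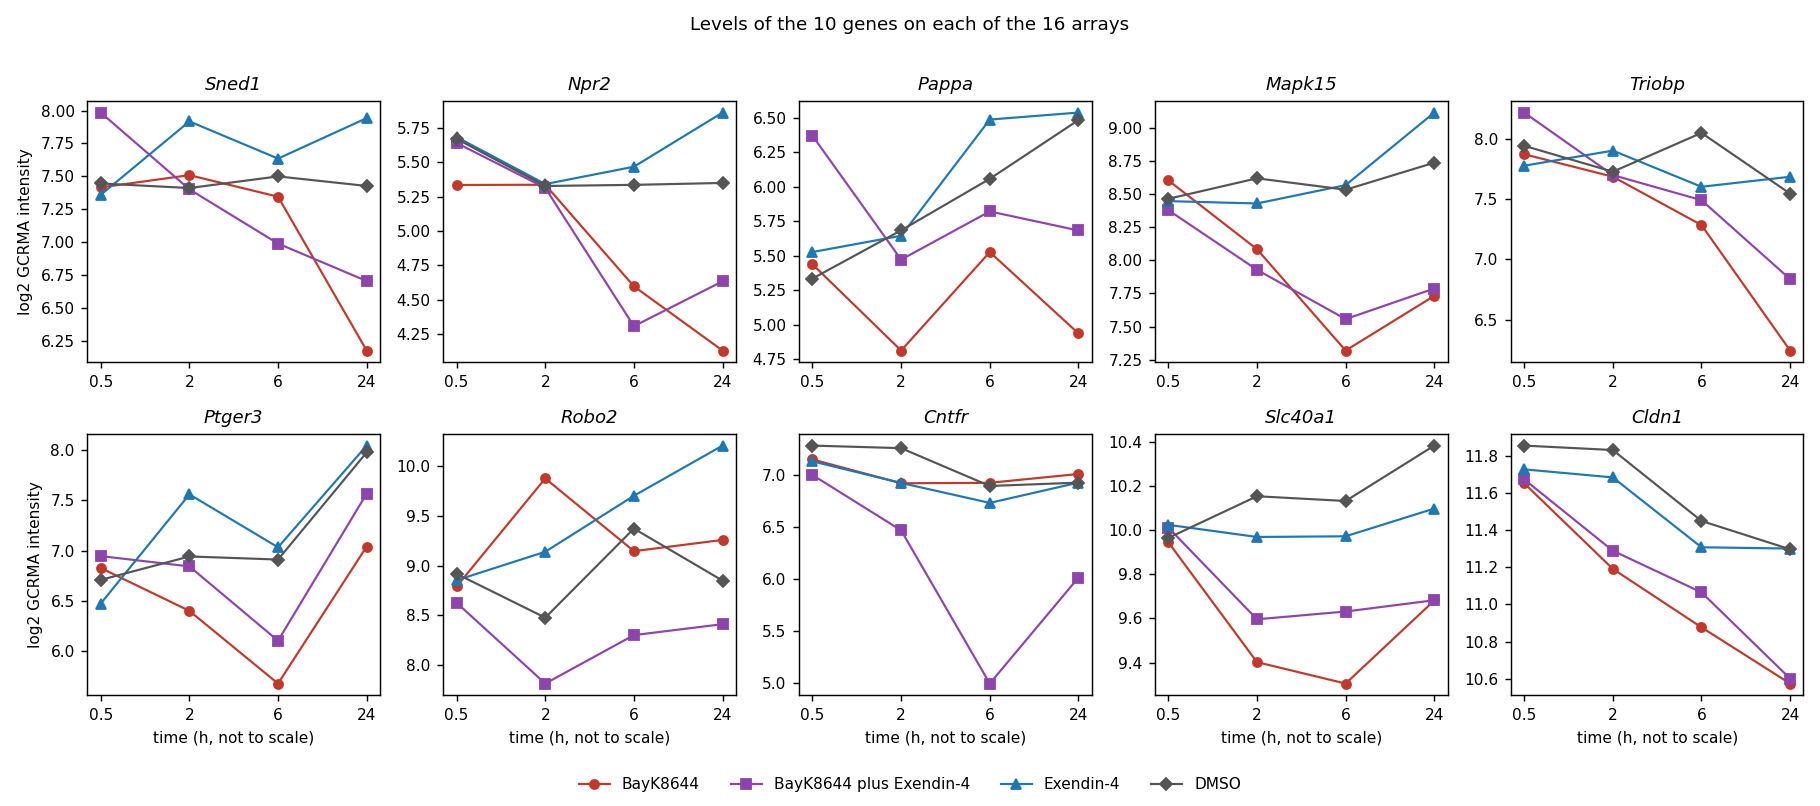
Log2 GCRMA intensity (vertical axis, own scale in each panel) of the 10 genes on each of the 16 arrays, at 0.5, 2, 6 and 24 h (horizontal axis, not to scale), with 1 point per array and a line for each of the 4 treatments. At 24 h both BayK8644 lines lie below both others for 8 genes, while for Robo2 and Cntfr the BayK8644 line lies above that of DMSO and the combination is lowest.

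Robo2 and Cntfr were not lower with BayK8644 alone at 24 h. Robo2 encodes a receptor for the Slit guidance proteins. With BayK8644 alone Robo2 had levels of 8.79, 9.88, 9.14 and 9.26 at 0.5, 2, 6 and 24 h, and with the combination 8.63, 7.81, 8.30 and 8.41. With exendin-4 alone it had 8.85, 9.14, 9.70 and 10.21, and with DMSO 8.92, 8.48, 9.37 and 8.85. BayK8644 alone was thus above DMSO at 2 and 24 h, by 1.40 and 0.41, whereas the combination was below exendin-4 at those times by log2 differences of -1.32 and -1.79. At 6 h both pairs were negative, with -0.23 and -1.40. At 24 h the exendin-4 array stood 1.36 above DMSO and the combination differed from DMSO by -0.44. Seen from DMSO, the -1.79 thus joins an exendin-4 array above it and a combination array below it. Which of these arrays departed was not tested. What the model left over for Robo2, the disagreement between the pairs of arrays at each time, exceeded that of 99.9% of genes. The mean difference of Robo2 at 24 h was -0.69 ± 0.62 (SE).

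Cntfr encodes the membrane-anchored subunit that binds ciliary neurotrophic factor. With BayK8644 alone its levels were 7.15, 6.92, 6.92 and 7.01 over the 4 times, with the combination 7.00, 6.47, 5.00 and 6.01, with exendin-4 7.13, 6.92, 6.73 and 6.92, and with DMSO 7.28, 7.25, 6.89 and 6.92. From 6 h on, the combination alone was low. BayK8644 differed from DMSO by 0.03 at 6 h and 0.08 at 24 h, while the combination differed from exendin-4 by -1.73 and -0.91. Its mean difference was -0.85 ± 0.36 at 6 h and -0.41 ± 0.36 at 24 h (SE). For both Robo2 and Cntfr the combination array was the lowest of the 4 at each time.

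Npr2 encodes the guanylyl cyclase receptor of C-type natriuretic peptide, which makes cyclic GMP. Its levels with BayK8644 were 5.33, 5.34, 4.60 and 4.13 at 0.5, 2, 6 and 24 h, and with the combination 5.64, 5.31, 4.31 and 4.63. With exendin-4 they were 5.68, 5.34, 5.47 and 5.86, and with DMSO 5.67, 5.33, 5.34 and 5.35. At 2 h all 4 arrays lay together, and from 6 h on both BayK8644 arrays lay below both others. The mean difference was -0.01 at 2 h, -0.95 at 6 h and -1.22 ± 0.15 at 24 h (SE), where the level was 42.9% of that without BayK8644. The 2 pairs of arrays gave nearly the same value at 24 h, -1.22 and -1.23. The BayK8644 level of Npr2 at 24 h was close to the filter at log2 4, and with 16 added to each intensity before the logarithm its 24 h difference was -0.81.

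Ptger3 encodes a receptor of prostaglandin E2 that couples to inhibition of adenylyl cyclase. With BayK8644 its levels were 6.83, 6.40, 5.68 and 7.04 over the 4 times, with the combination 6.95, 6.84, 6.10 and 7.57, with exendin-4 6.47, 7.56, 7.03 and 8.05, and with DMSO 6.71, 6.94, 6.91 and 7.98. Ptger3 climbed between 0.5 and 24 h under every treatment, by 0.21 with BayK8644, 0.62 with the combination, 1.57 with exendin-4 and 1.27 with DMSO. Its lower level at 24 h is therefore relative to cultures of the same age, and the BayK8644 array at 24 h stood above the DMSO array at 0.5 h. The mean difference with BayK8644 was -0.63 at 2 h, -1.08 ± 0.16 at 6 h and -0.71 ± 0.16 at 24 h (SE).

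Pappa encodes a secreted metalloproteinase that cleaves the insulin-like growth factor binding proteins IGFBP4 and IGFBP5. Its levels with BayK8644 were 5.44, 4.81, 5.53 and 4.94, with the combination 6.37, 5.47, 5.82 and 5.68, with exendin-4 5.53, 5.64, 6.49 and 6.54, and with DMSO 5.33, 5.68, 6.06 and 6.48. In the absence of BayK8644 the level climbed by 1.01 with exendin-4 and 1.15 with DMSO between 0.5 and 24 h, and in its presence it changed by -0.50 with BayK8644 alone and -0.69 with the combination. The combination array was the highest of the 4 at 0.5 h, where the mean difference was 0.47 ± 0.24. By 24 h the mean difference was -1.20 ± 0.24 (SE), or 43.5% of the level without BayK8644, and the pairs gave -1.55 for BayK8644 against DMSO and -0.85 for the combination against exendin-4.

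Sned1 encodes a secreted matrix glycoprotein. With BayK8644 its levels were 7.42, 7.51, 7.34 and 6.17, with the combination 7.98, 7.40, 6.99 and 6.70, with exendin-4 7.36, 7.92, 7.63 and 7.94, and with DMSO 7.45, 7.41, 7.50 and 7.43. The DMSO arrays kept between 7.41 and 7.50, and the BayK8644 array left that range by more than 1 only at 24 h. The mean difference was -0.40 ± 0.20 at 6 h and -1.25 ± 0.20 at 24 h (SE), with -1.25 and -1.24 in the 2 pairs. Sned1 at 24 h with BayK8644 had 42.2% of its level without the agent.

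Mapk15 encodes an atypical MAP kinase with roles in cilia and autophagy. Its levels with BayK8644 were 8.60, 8.08, 7.32 and 7.73, with the combination 8.38, 7.93, 7.56 and 7.79, with exendin-4 8.45, 8.43, 8.57 and 9.11, and with DMSO 8.46, 8.62, 8.53 and 8.74. From 2 h on both arrays with BayK8644 lay below both without it. The mean difference was -0.52 at 2 h, -1.11 at 6 h and -1.16 ± 0.12 at 24 h (SE), so the 6 h and 24 h values differed by less than the error.

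Triobp encodes a protein that binds and bundles actin filaments. At 0.5 h it had 7.87 with BayK8644 and 8.22 with the combination, against 7.78 with exendin-4 and 7.94 with DMSO. It stood at 6.24 with BayK8644 and 6.84 with the combination at 24 h, against 7.69 with exendin-4 and 7.55 with DMSO. At 2 h its 4 arrays lay between 7.69 and 7.90. At 6 h the levels were 7.28 and 7.49 with BayK8644 and the combination, and 7.60 and 8.05 with exendin-4 and DMSO. The mean difference was -0.12 at 2 h, -0.44 at 6 h and -1.08 ± 0.19 at 24 h (SE). Triobp and Sned1, both with far smaller differences at 6 than at 24 h, were the most alike of all pairs of the 10 genes over the 16 arrays (Pearson r = 0.87, a description over arrays that share treatments).

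Slc40a1, which encodes ferroportin, the exporter of cellular iron, and Cldn1, which encodes the tight-junction protein claudin-1, both differed at 2 h. At 0.5 h the 4 arrays lay between 9.94 and 10.02 for Slc40a1 and between 11.65 and 11.85 for Cldn1. At 2, 6 and 24 h Slc40a1 had 9.40, 9.31 and 9.68 with BayK8644 and 9.60, 9.63 and 9.68 with the combination, against 9.97, 9.97 and 10.10 with exendin-4 and 10.15, 10.13 and 10.38 with DMSO. Its mean difference was -0.02 at 0.5 h, then -0.56, -0.58 and -0.56 ± 0.14 at 2, 6 and 24 h (SE), so it was as large at 2 h as later. A second Slc40a1 probe set gave -0.46, -0.64 and -0.65 at those times. Cldn1 had 11.19, 10.88 and 10.58 with BayK8644 and 11.29, 11.07 and 10.60 with the combination at 2, 6 and 24 h. Without BayK8644 it had 11.68, 11.31 and 11.30 with exendin-4 and 11.83, 11.45 and 11.30 with DMSO. Cldn1 was lower at 24 than at 0.5 h under every treatment, with changes of -1.08 with BayK8644, -1.07 with the combination, -0.43 with exendin-4 and -0.56 with DMSO. Its mean difference with BayK8644 was -0.52, -0.41 and -0.71 ± 0.09 at the 3 later times, and a second Cldn1 probe set gave -0.51, -0.36 and -0.92.

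**Figure D2:**
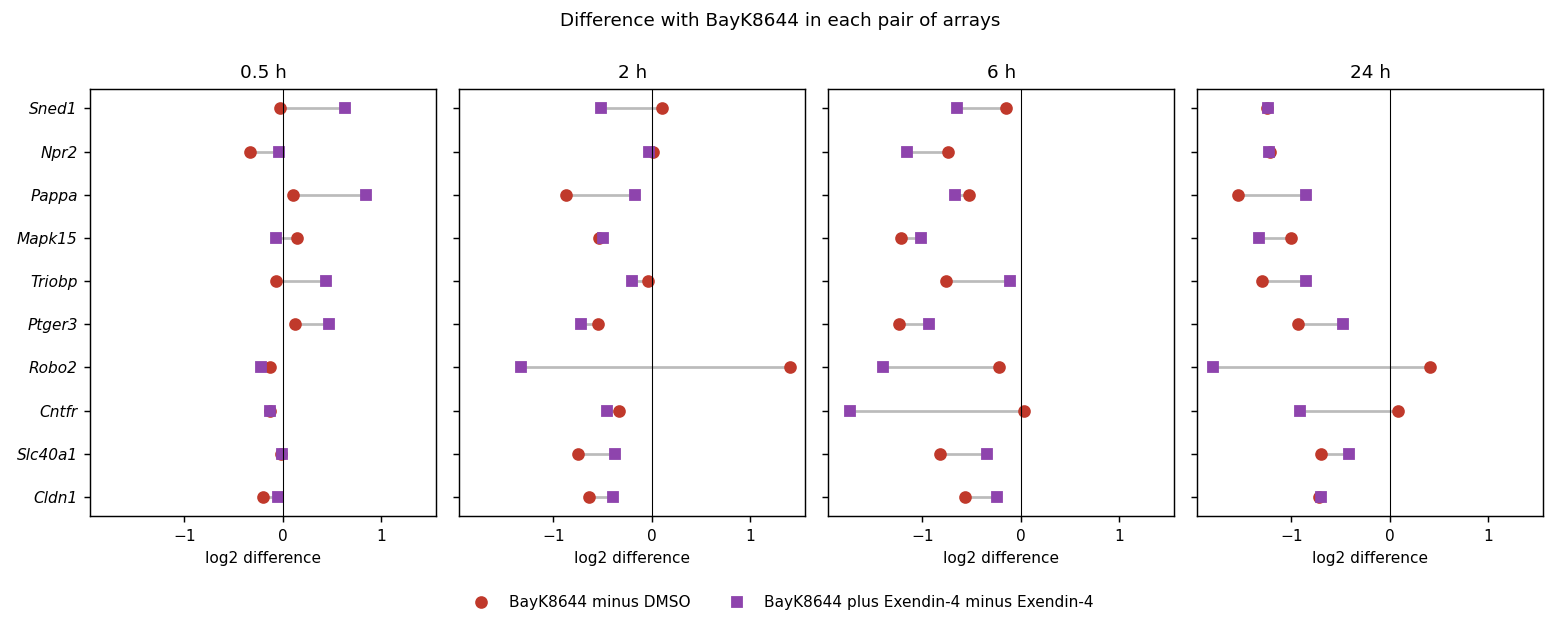
Log2 difference (horizontal axis) of BayK8644 minus DMSO (circles) and of the combination minus exendin-4 (squares) for each gene (rows) at 0.5, 2, 6 and 24 h (panels), 1 pair of arrays per point. Sned1 and Npr2 show nearly equal pairs at 24 h, with -1.25 and -1.24 for Sned1, while the Robo2 pairs lie on opposite sides of 0, at 0.41 and -1.79.

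Over the 10 genes the median mean difference with BayK8644 was 0.01 at 0.5 h, -0.46 at 2 h, -0.71 at 6 h and -0.89 at 24 h. The genes differed in when the lowest difference came. It came at 24 h for Sned1, Npr2, Pappa, Mapk15, Triobp and Cldn1, and at 6 h for Ptger3, Robo2, Cntfr and Slc40a1. The model across all genes counts 0, 1, 3 and 7 of the 10 among the genes lower at an adjusted p under 0.05 at 0.5, 2, 6 and 24 h, against 0, 0.481, 0.773 and 2.12% of all genes. These counts restate the choice of the genes and nothing is read from them. With 1 array left out they ranged over 0 to 1 at 2 h, 0 to 3 at 6 h and 2 to 6 at 24 h, with 0 at 6 h on leaving out either 6 h array that lacked exendin-4 and 2 at 24 h on leaving out either 24 h array that held it. At 2 h the count was 0 without any single array from 0.5 or 2 h, and with arrays centred on their medians it was 5 at 6 h. The error is pooled over the times, although the arrays of 24 h held 39.4% of the squared residuals and those of 0.5 h held 12.1%.

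Change over culture time separated the treatments as well, and is given as a description because it shares arrays with the BayK8644 difference. Between 0.5 and 24 h the median change of the 10 genes was -0.69 with BayK8644 and -0.84 with the combination, against 0.38 with exendin-4 and -0.04 with DMSO. Over all genes those medians were -0.03, 0.02, -0.03 and 0.02. With BayK8644, Ptger3 and Robo2 were higher at 24 than at 0.5 h and the other 8 lower. With the combination 9 of the 10 were lower at 24 h, with exendin-4 3 and with DMSO 6. Of all genes 54.6% were lower at 24 h with BayK8644, 47.1% with the combination, 57.2% with exendin-4 and 43.6% with DMSO.

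**Figure D3:**
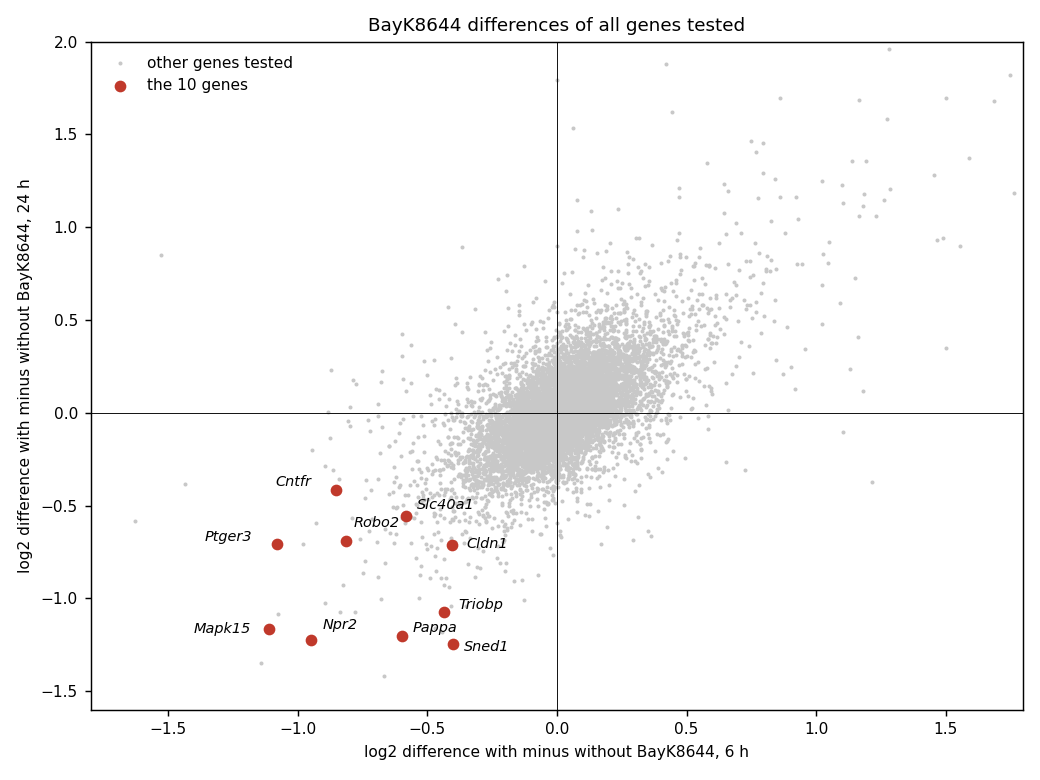
Log2 difference with minus without BayK8644 at 6 h (horizontal axis) and at 24 h (vertical axis) for the genes tested (grey points) and the 10 genes (red points, named), each the mean of 2 pairs of arrays; 21 genes lie outside the axes. Mapk15, Npr2 and Ptger3 lie far to the left, near -1 at 6 h, while Sned1 and Triobp lie low at 24 h with about -0.4 at 6 h.

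Among all 10610 genes, Sned1, Npr2, Pappa, Mapk15 and Triobp ranked 3, 4, 5, 7 and 10 by the size of the 24 h difference. The other places of the top 10 belonged to Vipr2 (-1.42), 1500004A13Rik (-1.35), Grasp (-1.18), Net1 (-1.16) and Prom1 (-1.08). None of these 5 passed (limma, adjusted p between 0.0641 and 0.263). Their pairs of arrays gave -1.77 and -1.06 for Vipr2, -0.56 and -2.14 for 1500004A13Rik, -2.02 and -0.34 for Grasp, -1.41 and -0.91 for Net1, and -1.57 and -0.59 for Prom1, each with BayK8644 against DMSO first. Cldn1, Ptger3, Robo2, Slc40a1 and Cntfr ranked 54, 58, 66, 138 and 290.

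Exendin-4 was then set against its absence, a contrast that uses the same arrays with other signs and is orthogonal to the BayK8644 difference. The values that chose Robo2 and Cntfr are not recorded and may include exendin-4 arrays, so theirs are given as a description. For the other 8 genes 0 passed at any single time or in the mean over the times (limma, adjusted p = 0.286 to 0.993 for the mean). In that mean 0.066% of all genes passed, 7 in number. At an unadjusted p under 0.05, 2 of the 8 were counted, Pappa and Ptger3, against 12% of all genes. Pappa was higher with exendin-4 by 0.41 (95% interval 0.14 to 0.68, adjusted p = 0.286) at 4 of 4 times. Ptger3 was higher by 0.26 (95% interval 0.08 to 0.44, adjusted p = 0.297), with a positive difference at 3 of 4 times.

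At 24 h alone the exendin-4 difference of those 8 genes ran from -0.14 to 0.52, with a median of 0.01 over all genes. The largest were 0.52 ± 0.20 for Sned1 and 0.51 ± 0.15 for Npr2 (SE). Of the 8, 0 passed (limma, adjusted p = 0.783 to 0.992, 2 at an unadjusted p under 0.05, against 5.91% of all genes). The share of all genes that passed was 0% at 6 and 24 h, 0.00943% at 0.5 h and 0.0189% at 2 h. For Mapk15, Slc40a1 and Cldn1 the mean over the times lay near 0, with 95% intervals of -0.12 to 0.15, -0.15 to 0.16 and -0.12 to 0.10. The second probe sets gave means of -0.15 for Slc40a1 and -0.13 for Cldn1, and -0.39 and -0.23 at 24 h, so the sign at 24 h depends on the probe set for Cldn1. The mean differences of Cntfr and Robo2 were -0.52 and -0.20.

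The interaction asks whether the BayK8644 difference was the same with and without exendin-4, with the 4 times as replicates. No gene of the 10610 passed (limma, 0% of all genes, 648 or 6.11% at an unadjusted p under 0.05). For the 8 genes other than Robo2 and Cntfr the limma adjusted p lay between 0.778 and 0.957, with 4 of these 8 at an unadjusted p under 0.05. The interval was -0.39 to 0.31 for Npr2 and -0.36 to 0.21 for Mapk15, so differences within those bounds could not be told from 0 here. Pappa had 0.50 (95% interval 0.10 to 0.90) and Triobp 0.36 (0.01 to 0.71). A positive value means a smaller lowering in the presence of exendin-4. Slc40a1 had 0.29 (0.06 to 0.52) and Cldn1 0.19 (0.02 to 0.36). All 8 genes may have been picked on BayK8644 alone against DMSO, arrays that enter the interaction. Such a choice would favour positive values, so the values of all these genes are descriptions and support no test. The same holds for -1.55 for Robo2 (95% interval -2.35 to -0.75) and -0.72 for Cntfr (-1.33 to -0.11), which are descriptions too.

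**Figure D4:**
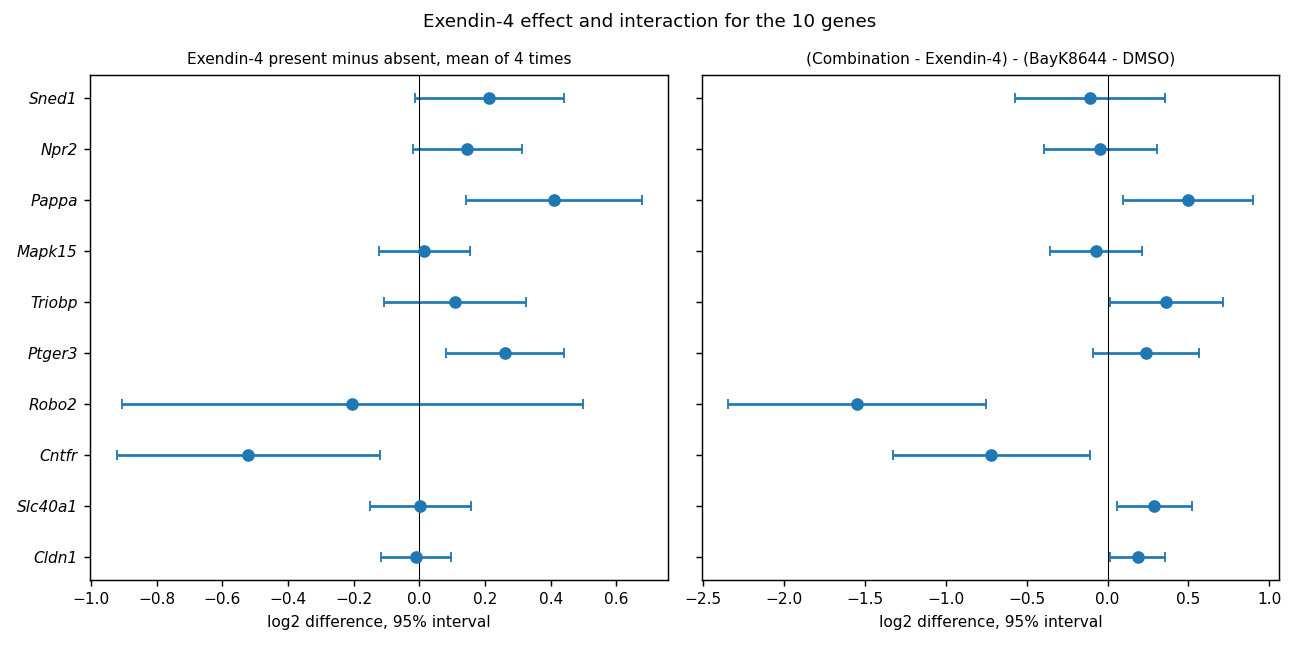
Log2 differences with 95% intervals (limma) for the 10 genes (rows). The left panel shows exendin-4 present minus absent as the mean of 4 times, 8 arrays against 8, and the right panel the interaction, the combination minus exendin-4 less BayK8644 minus DMSO; Robo2 at -1.55 and Cntfr at -0.72 lie to the left, and Sned1, Npr2 and Mapk15 near 0.

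Genes that act with the 10 or are related to them were taken from 10 lists of partners, 119 genes in all, of which 66 were tested. With BayK8644, 3 rose and 0 fell at 6 h, 5 rose and 1 fell at 24 h, and 0 passed at 0.5 or 2 h. At 24 h these are 9.09% of the tested partners, against 5.11% of all genes, and at 6 h 4.55% against 2.48%. The lists were chosen with earlier results of these data known, so nothing is read from these shares. Of all genes, 2.99% rose at 24 h and 1.71% at 6 h. At 2 h 1.63% of all genes passed, 1.15% upwards, and at 0.5 h 0.217% passed, all of them upwards. None passed for exendin-4 or for the interaction.

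Pappa2 and Igfbp4, from the partner list of Pappa, rose. Of 7 tested genes of IGF-binding protein proteolysis 2 rose and 0 fell at 24 h, with a list median of 0.07 and 0.01 over all genes. Pappa2, which encodes a related proteinase, had levels of 4.25, 4.36, 4.57 and 6.41 with BayK8644 at 0.5, 2, 6 and 24 h and 4.41, 4.40, 4.66 and 7.12 with the combination. With exendin-4 it had 4.40, 3.86, 3.99 and 5.38 and with DMSO 4.22, 4.33, 4.40 and 4.39. Pappa2 rose by 1.88 ± 0.17 at 24 h (SE, limma adjusted p = 0.000566), from levels near the floor, so its size is set in part by that floor. Igfbp4, the binding protein that the Pappa product cleaves, rose by 0.67 ± 0.07 at 6 h (adjusted p = 0.002) and by 0.57 ± 0.07 at 24 h (adjusted p = 0.00352). At 24 h Igfbp4 stood at 13.58 and 13.62 with BayK8644 and the combination, against 13.05 and 13.00 with exendin-4 and DMSO. The 24 h calls of Pappa2 and Igfbp4 held without any 1 of the 16 arrays (limma, adjusted p up to 0.00991 and 0.0458). The 6 h call of Igfbp4 did not survive leaving out either 6 h array that lacked exendin-4 (adjusted p = 0.078 and 0.0787).

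A further prostaglandin E2 receptor gene rose. Ptger4, whose product couples to stimulation of adenylyl cyclase, had 9.00, 9.06, 9.03 and 9.05 with BayK8644 at 0.5, 2, 6 and 24 h and 9.31, 8.93, 9.02 and 9.08 with the combination. With exendin-4 Ptger4 had 8.73, 8.20, 8.10 and 8.21, and with DMSO 8.72, 8.52, 8.58 and 8.51, so the arrays with BayK8644 were above the others at each time. Ptger4 rose by 0.71 ± 0.14 at 24 h (SE, limma adjusted p = 0.027) and by 0.68 at 6 h (adjusted p = 0.0456). The Ptger4 call of 24 h did not survive leaving out either 24 h array that held exendin-4 (adjusted p = 0.241 and 0.242), nor any single array from 0.5 h (adjusted p at most 0.0526), nor treating every probe set as its own row (adjusted p = 0.0634). That of 6 h held in 4 of the 16 fits that left out an array. Abcc4, a transporter that exports prostaglandins and cyclic nucleotides, rose by 0.35 ± 0.07 at 24 h (adjusted p = 0.0213) and did not pass when either 24 h array that held exendin-4 was left out (adjusted p = 0.128). In the list of 4 tested prostaglandin E2 genes 2 rose and 0 fell at 24 h, with a median of 0.27.

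Fn1, which encodes fibronectin and was the 1 partner that fell, was like Sned1 low at 24 h. Fn1 had 8.82, 8.70, 8.64 and 7.75 with BayK8644 over the 4 times and 8.95, 9.08, 8.77 and 7.81 with the combination, against 8.61, 8.95, 8.72 and 8.70 with exendin-4 and 8.70, 8.91, 8.83 and 8.61 with DMSO. The arrays with BayK8644 lay below both others at 24 h alone, with a difference of -0.87 ± 0.12 (SE, limma adjusted p = 0.00519). The call did not survive leaving out either 24 h array that held exendin-4 (adjusted p = 0.0605 and 0.0595). Of the 5 tested matrix genes 0 rose and 1 fell at 24 h.

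**Figure D5:**
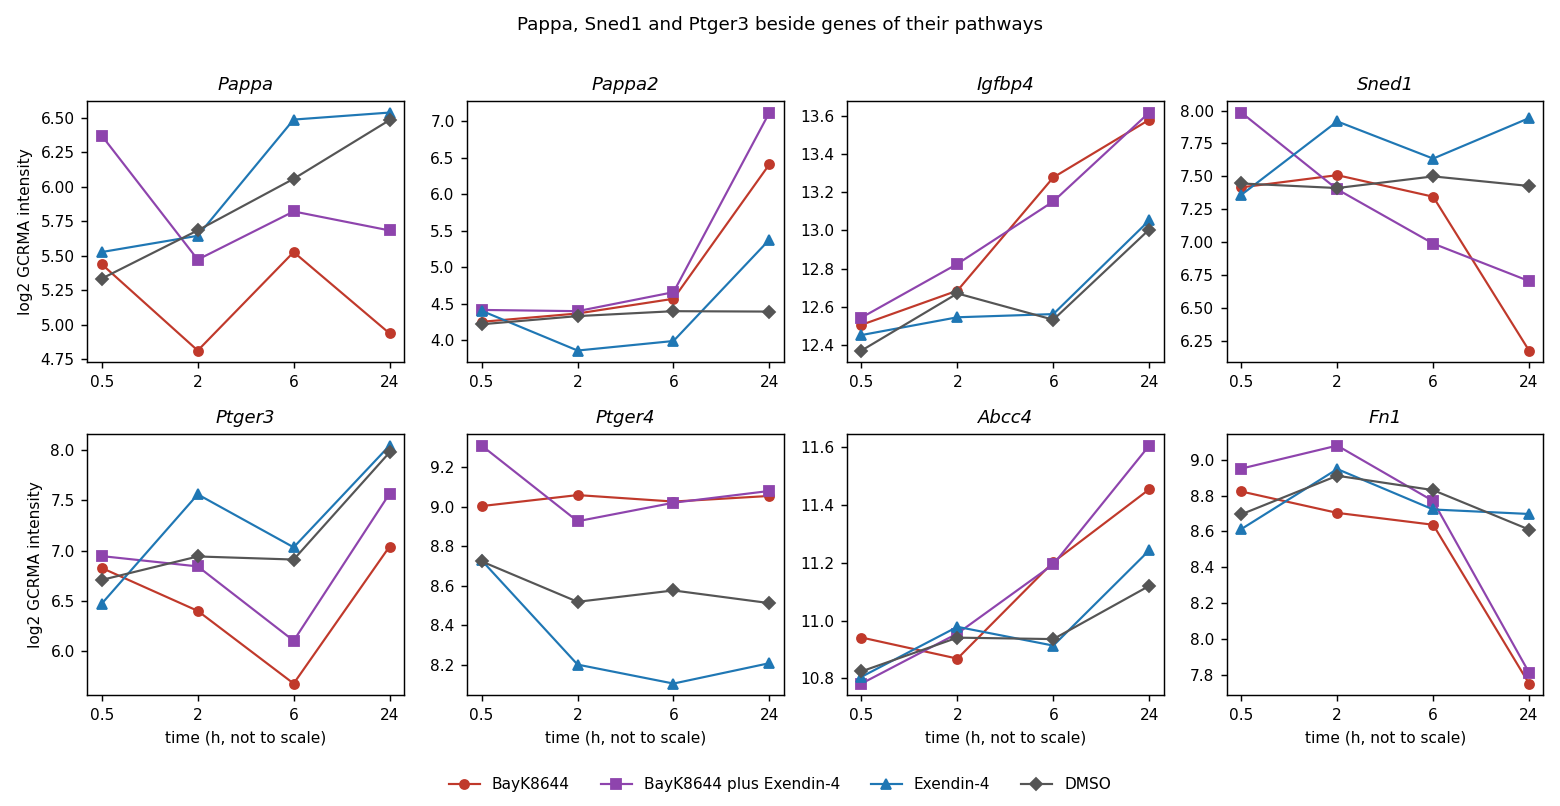
Log2 GCRMA intensity (vertical axis, own scale in each panel) at 0.5, 2, 6 and 24 h (horizontal axis, not to scale) of Pappa, Sned1 and Ptger3 beside Pappa2, Igfbp4, Ptger4, Abcc4 and Fn1, with 1 point per array and a line per treatment. At 24 h Pappa2 and Ptger4 are higher with BayK8644 (6.41 and 7.12 for Pappa2), where Pappa and Ptger3 are lower, and Fn1 is lower at 24 h as Sned1 is.

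Of the remaining lists, natriuretic peptide and cyclic GMP genes had 1 of 5 tested members up at 24 h. This was Pde2a, a phosphodiesterase of cyclic nucleotides, which rose by 0.54 ± 0.13 (limma adjusted p = 0.0455) and held in 2 of the 16 fits that left out an array. The Slit and Robo list (9 tested), the CNTF and cytokine receptor list (6), iron handling (7), tight junction (5) and MAP kinases (8) had 0 members past the threshold at any time. Their medians at 24 h lay between -0.08 and 0.06.

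Outside the 10 genes, the profile over the 16 arrays most like their mean belonged to Map2, a microtubule-associated protein gene (r = 0.96). The lipid transporter gene Abca7 (0.95), the reductase gene Cyb5r3 (0.93), Sytl4, a granule protein gene (0.93), and Nkx2-2 (0.93) came next. Ankrd44, Mrtfb, Sestd1, Pdcd4 and Mbtd1 followed with r between 0.91 and 0.92. All 10 of these had lower mean levels with BayK8644 at 24 h, with differences of -0.30 for Map2, -0.64 for Nkx2-2, -0.65 for Ankrd44 and -0.24 for Mbtd1, as a choice by this likeness brings with it. The correlations run over arrays that share treatments and describe likeness only. Among the 10 themselves 42 of 45 pairs correlated above 0, from -0.10 to 0.87 with a median of 0.42, and Mapk15 was closest to the mean of the other 9 (r = 0.92) while Robo2 was farthest (0.27).

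RefSeq promoter sequences on build GRCm38.p6, which run from 250 bases before to 50 after a transcription start, were held for 7 of the 10 genes, 15 promoters in all. They were searched on both strands for the calcium and cyclic AMP response element TGACGTCA, the AP-1 motif TGANTCA, the FOXO motif GTAAACA, the E-box CACGTG, the ETS motif CCGGAAG and the EGR motif GCGGGGGCG. The E-box was found in 1 Robo2 promoter, 18 bases before the start, and no other match was found. The share of all promoters that hold none of the motifs was not computed, so nothing is read from this. Of all 32851 promoters 1.79% hold the response element, 7.81% the AP-1 motif, 3.65% the FOXO motif, 7.15% the E-box, 8.86% the ETS motif and 2.91% the EGR motif. Absence of these letters says only that they are not in these windows. The 15 promoters had a median of 64.0% G and C, against 52.7% for all promoters. Cntfr, Robo2 and Triobp have several promoters each, and some Cntfr windows overlap, so that median is not one over genes. The promoters of Sned1 and Npr2, the genes with the largest 24 h differences, are shown 5′ to 3′ with that of Robo2, in which capitals mark the E-box.
Sned1, chr1:93235647-93235946, strand plus: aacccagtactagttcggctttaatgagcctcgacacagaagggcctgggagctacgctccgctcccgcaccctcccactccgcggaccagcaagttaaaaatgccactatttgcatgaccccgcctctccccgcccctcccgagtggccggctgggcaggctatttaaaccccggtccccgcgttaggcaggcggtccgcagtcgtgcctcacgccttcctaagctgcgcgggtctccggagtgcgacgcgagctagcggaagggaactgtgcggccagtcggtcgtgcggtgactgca
Npr2, chr4:43631685-43631984, strand plus: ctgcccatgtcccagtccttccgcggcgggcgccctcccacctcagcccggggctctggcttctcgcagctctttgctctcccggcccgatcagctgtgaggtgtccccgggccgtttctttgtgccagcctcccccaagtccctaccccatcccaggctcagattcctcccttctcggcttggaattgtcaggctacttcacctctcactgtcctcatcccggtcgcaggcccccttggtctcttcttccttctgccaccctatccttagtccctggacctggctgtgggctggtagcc
Robo2, chr16:75447244-75447543, strand minus: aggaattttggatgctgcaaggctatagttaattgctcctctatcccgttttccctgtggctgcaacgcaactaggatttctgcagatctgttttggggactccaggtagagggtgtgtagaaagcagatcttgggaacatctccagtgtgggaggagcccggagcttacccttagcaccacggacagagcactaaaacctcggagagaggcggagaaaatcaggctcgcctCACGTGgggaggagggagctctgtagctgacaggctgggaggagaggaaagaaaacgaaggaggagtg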

How the data were processed

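Expression was measured on 16 single-colour arrays of R7T1 cells. Per the labels' protocols, RNA was purified on RNeasy columns and 5 ug was labelled with biotin in a single amplification. The authors made the deposited intensity values, on a linear scale, with GCRMA, per the submitters' processing notes; its version and later steps are not given in the sources used here. GCRMA normalizes arrays to a common distribution, so a change shared by most genes would be removed.

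Log2 of the intensity was taken with no offset. Probe sets with 1 gene symbol in the platform annotation (34958) were kept where log2 reached 4 on at least 2 arrays, and a gene was represented by its probe set of highest mean. Linear models across all 10610 genes were run with limma 3.58.1 under R 4.3.3, using lmFit and eBayes with trend, with terms for time and for each agent at each time (4 residual degrees of freedom). In them an interaction of the agents counts as error. A further model held 1 interaction term (3 residual degrees of freedom). P-values were adjusted by Benjamini-Hochberg over all genes with 0.05 as threshold. The fits were tested on simulated data. The number of arrays limits the precision.

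The members, partner lists and motifs were chosen with earlier results of these data known. The result of 1 partner list is not reported here, though its genes are in the summed partner counts. Named genes were the 10 members, the 10 largest 24 h falls, the 10 closest profiles and partners that passed, other than in the list not reported. Alternatives were no filter, a filter of log2 6, every probe set as its own row, no trend, an offset of 16, median centring and leaving out each array.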

Additional observations from a re-analysis of the deposited data

How the results depend on the processing

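Counts of genes past the threshold depended on single arrays. With 1 array left out, genes passing for BayK8644 numbered 6 to 24 at 0.5 h (23 with all arrays), 19 to 242 at 2 h (173), 30 to 412 at 6 h (263) and 116 to 1467 at 24 h (542). The lowest 24 h count came without the combination array of 24 h (126 without that of exendin-4) and the highest without the BayK8644 array of 24 h (1462 without that of DMSO). The lowest at 0.5, 2 and 6 h came without an array of the same time. For exendin-4 they numbered 1 to 2 at 0.5 h (1), 0 to 2 at 2 h (2) and 1 to 332 for the mean over the times (7), where leaving out the 24 h array of exendin-4 gave 332 and that of DMSO 327. With no filter, 171 genes passed for BayK8644 at 6 h, and 3 and 2 for exendin-4 at 0.5 and 24 h. Without the trend, 143 passed for BayK8644 at 6 h, 321 at 24 h, 0 for exendin-4 at 2 h and 1 for its mean. With every probe set as its own row, exendin-4 had 0 at 2 h and 1 for its mean, and with the filter at log2 6 it had 13 for its mean. The cause was not tested. Replicates could not be paired, because each treatment and time had 1 array.

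Of the 10 genes, Robo2 and Cntfr turned sign when an array was left out. Robo2 at 24 h ranged over -1.79 to 0.41, Cntfr over -1.73 to 0.0305 at 6 h and -0.91 to 0.0829 at 24 h. The positive values came from leaving out either array of that time that held exendin-4. The 24 h and 6 h differences of the other 8 genes were negative in every alternative that could be computed. Leaving out an array of that time returns the difference of the other pair of arrays. Changing the filter or the trend, or leaving out an array of another time, leaves the difference as it was. The constant sign thus follows from both pairs being negative, and nothing is read from it. With the filter at log2 6, Npr2 was not tested. Small exendin-4 means turned sign too, at ranges of -0.0255 to 0.0551 for Mapk15, -0.0585 to 0.0629 for Slc40a1, -0.0511 to 0.0313 for Cldn1 and -0.54 to 0.14 for Robo2. So did interactions, at -0.36 to 0.0587 for Sned1, -0.16 to 0.0825 for Npr2 and -0.16 to 0.0101 for Mapk15. With arrays centred on their medians the exendin-4 means were -0.0042 for Mapk15 and -0.017 for Slc40a1. None of the 10 passed for exendin-4 or the interaction under any alternative. The interaction values of the 10, and the exendin-4 values of Robo2 and Cntfr, remain descriptions. With all arrays no gene of the series passed for the interaction, so the missing calls are not particular to the 10. They do not show that an effect was absent.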
